A study of Mus musculus with 46 samples.

Results

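Canonical histone genes were followed through 4 tables of RNA sequencing values from AML12, a hepatocyte line established from mouse liver, and from mouse liver. A gene was a member when its name carried a current or older symbol of the clustered H2A, H2B, H3 or H4 genes or of the H1 linker histones, and when its mean reached a limit in a table. The limit was a mean of 3, or of 5 counts in the table of counts. Of 70 rows with such a name among 56775 gene rows, 53 were members of at least 1 table. These were 16 genes in the inducible AML12 lines, 50 in the conventional AML12 knockdowns, 24 in the NCD livers and 17 in the HFD livers, with 7 genes in all 4. Close to the limit, H2ac12 and H2ac13 entered the inducible set at a mean of 3 and H2ac8 stayed out at 2.56. H4c2 entered the conventional set at 5 and H3c8 stayed out at 4.11. On NCD H2ac4 entered at 3.13 and H3c11 stayed out at 2.88, and on HFD H2ac4 entered at 3.27 and H4c1 stayed out at 2.82.

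The study concerned Falcor, a long noncoding RNA listed as 9030622O22Rik, and compared cells and livers with and without it in 46 libraries of 13 groups. The inducible table held AML12 cells with a control hairpin (shCtrl) or with the hairpin labelled shLinc, which is taken here as the Falcor hairpin because the label sits under a heading named for it. Each hairpin had 3 libraries without doxycycline, 3 with doxycycline and 3 labelled DoxMinus, called restored below, as a second label has it. The conventional table held 3 AML12 libraries each of shCtrl, shFalcor and shZC3H11A, a hairpin against an mRNA export factor. Livers came from 2 diets, labelled NCD (4 controls, 4 with Falcor knocked out) and HFD (5 controls, 6 knockouts). All cell groups share the AML12 background, which is 1 established line. The sources used here state no age, sex or strain, nor how the knockout or hairpins were made. Nor do the labels say whether replicates were separate cultures or animals, so the p-values below rest on a spread that may be purely technical.

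Most canonical histone genes are transcribed in S phase, when new DNA must be packed into nucleosomes, and sit in clusters that are expressed together. Their mRNAs have no introns and no poly(A) tail. They end just after a short hairpin, the stem-loop, which is bound by SLBP and cut with the help of the U7 small nuclear ribonucleoprotein, and they are degraded when replication stops. H1f0 is an exception: this linker histone is made outside S phase, its mRNA is polyadenylated, and it accumulates in cells that differentiate. Some canonical genes can also give polyadenylated transcripts that run past the stem-loop, mostly in cells that do not divide.

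The stem-loop is shown for the genes on which the comparisons turn, because it separates the members by the end of their RNA. It was searched in GENCODE vM21 transcripts (GRCm38) as a run of 16 bases: a 6-base stem that begins with GG, a loop of 4 bases that begins with TT, and the exact reverse complement of the stem. Of the 70 rows, 67 matched a transcript and 41 of those held a site. The capitals mark the stem-loop, and the lower case letters are the bases on either side of it.

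H1f2: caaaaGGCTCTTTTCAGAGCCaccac
H1f4: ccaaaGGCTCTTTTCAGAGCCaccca
H2ac24: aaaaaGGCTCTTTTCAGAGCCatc
H2bc8: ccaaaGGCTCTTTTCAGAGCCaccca
H3c7: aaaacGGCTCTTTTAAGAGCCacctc
H4c8: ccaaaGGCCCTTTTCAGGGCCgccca
H4c9: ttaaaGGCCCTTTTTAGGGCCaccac
H4c18: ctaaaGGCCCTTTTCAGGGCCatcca

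Only 6 different stem-loops occurred among the 41 genes. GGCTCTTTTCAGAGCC was present in 24 genes of the H1, H2A, H2B and H3 classes, and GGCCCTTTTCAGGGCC in 6 genes of the H4 class. The stem of the H4 genes therefore differed from that of the other classes, while the loop differed only in its last base. In 22 genes the transcript ended within 100 bases of the stem-loop, as in H4c8 (46 bases after it), H4c18 (31) and H2ac24 (3). In 19 genes it ran on, as in H1f2 (840 bases after it), H1f4 (1153), H3c7 (365), H4c9 (330) and H2bc8 (155). In 13 genes no site was found, among them H1f0, H2bc4, H2bc21 and H3c8. Another 13 without a site had a short transcript of whole codons, called coding-only below from its length alone. These are properties of the annotated transcripts, not of the RNA in these samples.

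The members that the results turn on lie on 3 chromosomes of GRCm38, by RefSeq coordinates. H1f0 stands alone at chr15:79028212-79030504. The cluster on chromosome 13 holds H4c18 (chr13:21831792-21832197), H2ac24 (chr13:21833024-21833475), H4c9 (chr13:22040960-22041362), H4c8 (chr13:23531044-23531478), H3c7 (chr13:23544052-23544954), H2bc8 (chr13:23571400-23571863), H1f4 (chr13:23621777-23622558), H2bc4 (chr13:23684199-23692480) and H1f2 (chr13:23738807-23739531). H2bc21 (chr3:96221072-96223738) and H2ac18 (chr3:96245497-96246052) belong to the smaller cluster on chromosome 3. In RefSeq promoters (GRCm38.p6, 250 bases before to 50 after the start, both strands), the octamer ATTTGCAT was found in 7 of 15 H2B and 6 of 17 H2A promoters and in no H1, H3 or H4 promoter, against 1.74% of all 32851 promoters. CCAAT was present in 100% of H2A, H2B and H3 promoters, in 27.3% of H4 promoters and in 37.4% of all promoters. These matches describe the window searched and are not evidence of binding.

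Counts in the conventional table summed to 4474760 to 8837581 per library. The other tables hold rounded values whose columns sum to 833910 to 975752, so their sequencing depth is unknown. In the inducible table Falcor was listed at 4, 6 and 5 in the shCtrl line and at 12, 9 and 10 in the shLinc line without doxycycline, so the lines differed before induction. With doxycycline it was at 5, 4 and 5 in shCtrl and at 2, 2 and 3 in shLinc (log2 fold change -0.78, adjusted p = 0.000218, limma with Benjamini-Hochberg adjustment). In the conventional table Falcor had 38, 11 and 24 counts in shCtrl, 7, 4 and 5 in shFalcor, and 4, 3 and 6 in shZC3H11A, so both hairpins were low in it. Falcor was listed at 0 in all knockout livers. In the HFD table the library KO-6 stood apart: 85.0% of its summed values lay in rows that each held over 5% of the column, against 49.3 to 70.7% in the other HFD livers.

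The tables differed in which histone genes they showed. Of the 50 conventional members, 36 were below a mean of 3 in the inducible table. Of these, 3 were at 0 in all its libraries, and the highest value any of them reached there was 6. The limits were unlike, 5 counts against 3 in an unnamed unit, so the 36 include genes low in both tables. In conventional shCtrl, H2ac11, H2ac22, H3c2 and H4c2 had means of 2.05, 1.60, 0.95 and 0.92 CPM, the count scaled to library size. Other genes were well above the limit in the conventional table. H1f4, a linker histone of replicating cells, had 773 to 2081 counts per conventional library and 0 or 1 in every inducible library. H4c4 likewise had 601 to 1273 counts and 0 or 1, and H3c6 had 407 to 739 counts and 0 or 1. RNAs of other kinds without a poly(A) tail, a list chosen after values had been seen, were also low in the inducible table. Rn7sk, the 7SK RNA, was at 1 to 32 there, at 41657 to 111919 counts in the conventional table and at 3124 to 11602 in the livers. Rpph1, the RNA of ribonuclease P, was at 0 to 5, at 9526 to 13728 counts and at 2680 to 18664. The labels give the same library kit, with depletion of ribosomal RNA, for all samples. Why the inducible table lacked these RNAs was not tested, and its histone values are those of the transcripts it did show.

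Among the inducible members, H1f0 and H2ac24 were far above the rest. H1f0 had a mean of 335.9 and H2ac24 of 457.3, followed by H2bc4 at 35.7, H4c9 at 14.1 and H3c8, the only H3 member, at 5.83. The values look like a length-scaled unit, but no source used here names the unit and this was not tested. The order of different genes is therefore tentative. H2ac24 is uncertain, since 93.4% of its 31-base words also occur in a neighbouring H2A gene.

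Most inducible members were lowest in restored cells. In the shCtrl line the summed level of the 14 members other than H1f0 and H2ac24 was 199.9 ± 22.5 (SD, n = 3, scaled values) before doxycycline. It was 193.0 ± 5.71 under doxycycline and 87.6 ± 2.93 in restored cells. In the shLinc line the same sums were 208.2 ± 1.31, 197.1 ± 2.32 and 127.0 ± 7.10. In both lines the restored libraries lay below all others of their line in this sum. With H1f0 and H2ac24 included, restored shCtrl cells were instead highest, at 1135 ± 23.3. Their sums were 977.4 ± 73.1 before doxycycline and 997.5 ± 48.7 under it. In shLinc the full sums were 811.8 ± 14.8 before doxycycline, 1022 ± 3.47 under it and 855.9 ± 39.8 in restored cells.

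**Figure D1:**
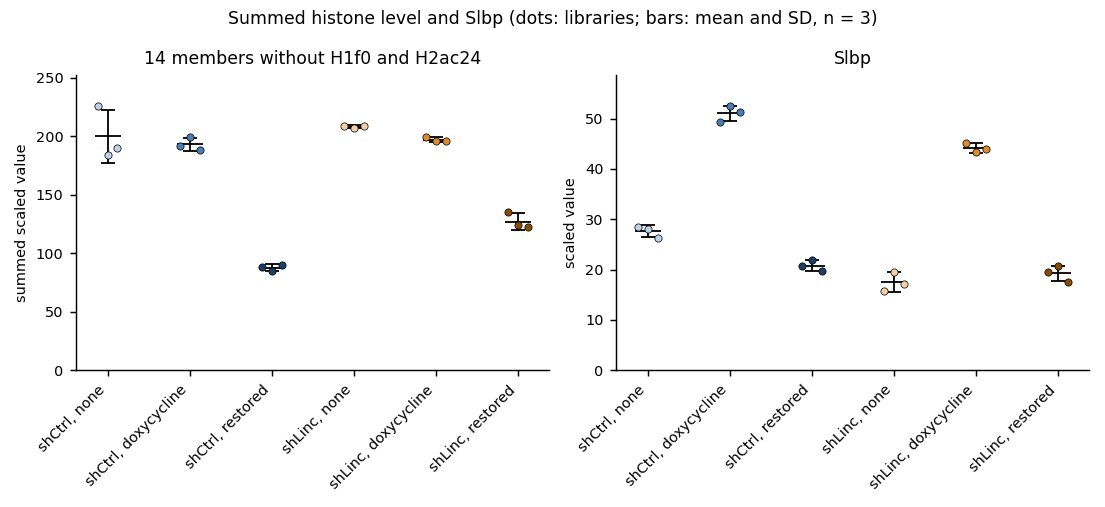
Summed scaled value of 14 histone members (left, without H1f0 and H2ac24) and scaled value of Slbp (right) in the 6 inducible groups; points are libraries, bars are the mean and SD (n = 3). The restored groups are the lowest on the left, at 87.6 and 127.0, while Slbp is highest with doxycycline.

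H2bc4, an H2B gene for which no stem-loop was found, showed it most clearly. Its deposited values in untreated shCtrl cells were 41, 40 and 37, under doxycycline 47, 45 and 40, and in restored cells 15, 16 and 16. In shLinc they were 45, 49 and 49, then 43, 39 and 42, then 29, 26 and 24. The restored libraries were below all others in both lines and lowest in shCtrl. From doxycycline to restored cells H2bc4 fell by 1.45 on the log2 scale in shCtrl (SE 0.07, adjusted p = 2.54e-11, limma) and by 0.81 in shLinc (adjusted p = 3.74e-08), and these changes differed from each other by 0.64 (adjusted p = 6.64e-05).

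H1f2, a linker histone whose annotated transcript runs past its stem-loop, followed the same course. In shCtrl it was at 47, 42 and 40 in untreated, 48, 46 and 48 in doxycycline and 22, 18 and 20 in restored cells. In shLinc it was at 61, 60 and 60, then 47, 45 and 50, then 35, 34 and 36. Restored values did not overlap with the others in either line. The fall from doxycycline to restored cells was -1.22 (SE 0.08, adjusted p = 2.42e-10) in shCtrl and -0.60 (adjusted p = 1.71e-06) in shLinc on the log2 scale.

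Of the 4 H4 genes, which package DNA together with H3, 4 were called lower in restored than in doxycycline cells in shCtrl and 3 in shLinc. H4c8 was at 13, 14 and 15 in untreated shCtrl cells, at 7, 7 and 5 under doxycycline and at 2, 4 and 4 in restored cells. In shLinc it was at 7, 10 and 8, then 8, 8 and 8, then 5, 4 and 6. The shCtrl line fell at each step, by 1.03 on the log2 scale with doxycycline (adjusted p = 7.15e-05) and by a further 0.80 in restored cells (adjusted p = 0.000596). H4c9 was at 15, 18 and 16 with doxycycline and 10, 8 and 7 restored in shCtrl, and at 19, 18 and 13, then 11, 7 and 9 in shLinc (log2 fold changes -0.92 and -0.99, adjusted p = 0.000406 and 0.000216). H3c8 went from 10, 9 and 10 to 2, 0 and 3 in shCtrl and from 8, 8 and 11 to 3, 2 and 4 in shLinc (log2 fold changes -2.26 and -1.48, adjusted p = 5.62e-05 and 0.00208). Values this low are rounded to whole numbers, which limits how finely their spread is known. H4c12, at 4, 8 and 4 with doxycycline and 1, 2 and 3 restored in shCtrl, lost its call without restored replicate 1 (adjusted p = 0.0849) or doxycycline replicate 2 (0.0850).

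H1f0 and H2ac24 went against this. H1f0 was at 277, 288 and 279 with doxycycline and at 351, 329 and 325 restored in shCtrl, and at 246, 244 and 245, then 378, 371 and 387 in shLinc. The restored libraries were higher in both lines (log2 fold changes 0.24 and 0.45, adjusted p = 8.84e-06 and 3.11e-09). H2ac24 rose from 439, 484 and 534 to 679, 679 and 660 in shCtrl (0.46, adjusted p = 0.000163) but fell from 540, 534 and 544 to 438, 419 and 359 in shLinc (-0.59, adjusted p = 1.17e-05). The directions were thus opposite in the 2 lines, with a difference of 1.05 between them (adjusted p = 1.91e-06).

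**Figure D2:**
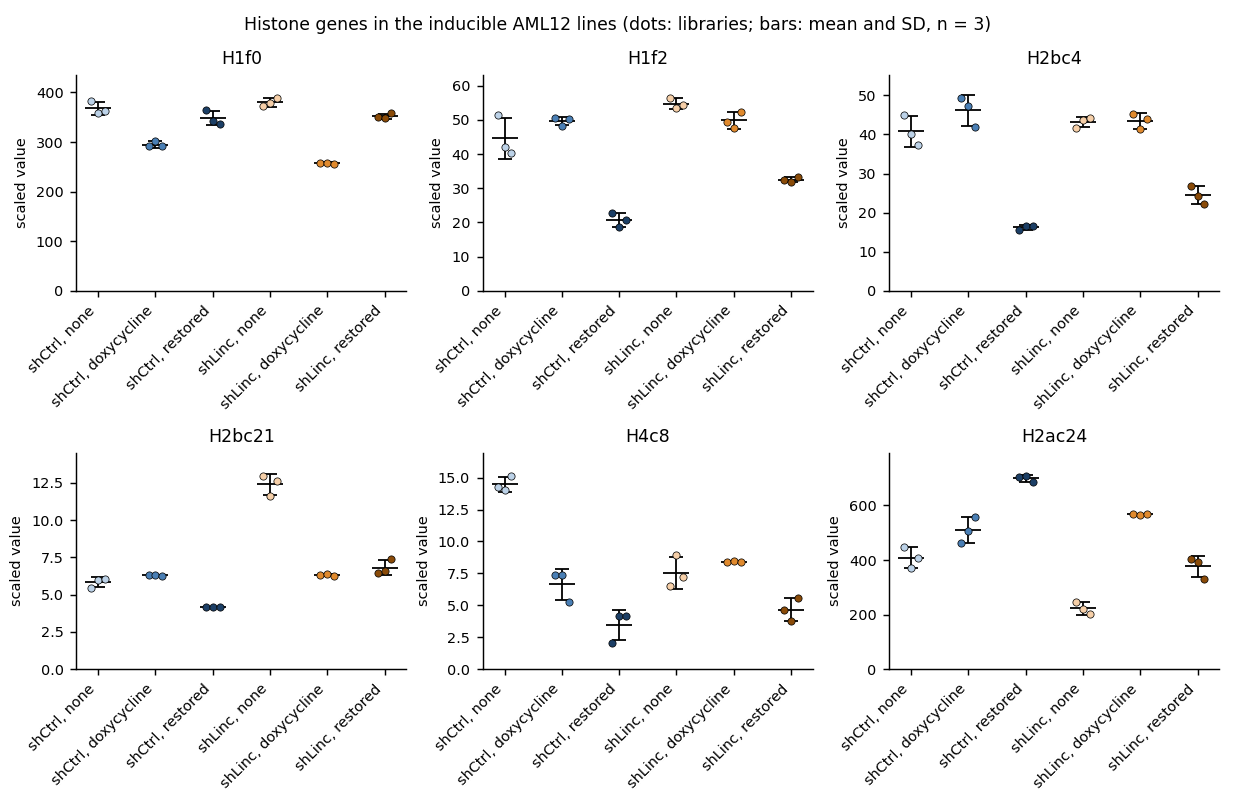
Scaled values of 6 histone genes in the 6 inducible groups; points are libraries, bars are the mean and SD of 3, and each panel has its own axis. H1f2 and H2bc4 are lowest in the restored groups, H1f0 is lowest with doxycycline, and H2ac24 is highest in restored shCtrl cells.

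In counts, restored against doxycycline gave 2 members higher and 11 lower of 16 in shCtrl, where 39.6% of all 9877 genes tested were higher and 34.2% lower. The median log2 fold change of the members was -0.97, against 0.045 for all genes. All 4 H2B and all 4 H4 members were among the 11, but H4c18 lost its call when summed with its near-identical copy H4c17, which was at 3 in restored replicate 1 and at 0 in the other inducible libraries (-0.46, adjusted p = 0.108). By the annotated end of the RNA, 3 of 6 members that end at the stem-loop were lower, 3 of 3 that run past it and 3 of 4 without a site. In shLinc, 1 was higher and 9 lower, beside 34.2% and 38.0% of all genes, with a median of -0.62 against -0.03. Restored against no doxycycline gave 1 higher and 10 lower in shCtrl (background 27.1% and 22.8%, median -0.97 against 0.03) and 1 higher and 9 lower in shLinc (background 28.5% and 23.8%, median -0.70 against 0.03). The share of members called lower was above the share of all genes in these 4 comparisons. They share libraries and are not independent of each other. Under the values without rescaling, median-of-ratios scaling and each left-out library, the 4 counts stayed within 1.5 times.

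Doxycycline itself moved the members less uniformly. Against no doxycycline, 4 members rose and 3 fell in shCtrl, where 34.0% of all genes were higher and 32.5% lower, and 1 rose and 3 fell in shLinc, where the shares were 38.6% and 35.6%. The members' medians were 0.13 and -0.08. The higher count in shCtrl was 2 without rescaling and under median-of-ratios scaling, since H3c8 and H2bc4 lost their calls. H2bc4 (0.18, adjusted p = 0.0481) also lost it without untreated replicate 2 or 3 or doxycycline replicate 1 or 2 (adjusted p = 0.0999, 0.209, 0.193 and 0.123). H1f0 fell in both lines, from 350, 358 and 360 to 277, 288 and 279 in shCtrl and from 402, 426 and 431 to 246, 244 and 245 in shLinc (log2 fold changes -0.32 and -0.56, adjusted p = 3.84e-07 and 1.25e-10). H2ac24 rose in both, most in shLinc, from 267, 248 and 223 to 540, 534 and 544 (1.35, adjusted p = 4.30e-10), against 0.32 in shCtrl (adjusted p = 0.00439). H2bc21, an H2B gene for which no stem-loop was found, fell from 14, 13 and 14 to 6, 6 and 6 in shLinc (-0.87, adjusted p = 2.80e-09). In shCtrl H2bc21 was at 5, 6 and 6, then 6, 6 and 6. H3c8 passed the test in shCtrl at an adjusted p of 0.0496 and lost it without any 1 of the 6 libraries compared (adjusted p = 0.0596 to 0.134).

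Lists of replication and division genes are given beside the histone members, since canonical histones are made in S phase. Of all genes, 38.6% were higher and 35.6% lower with doxycycline in shLinc, and 34.0% and 32.5% in shCtrl. For restored against doxycycline cells the shares were 34.2% and 38.0% in shLinc, and 39.6% and 34.2% in shCtrl. With doxycycline, 46 of 48 tested S phase and replication genes were higher and 1 lower in shLinc (median log2 fold change 1.26), and 41 higher and 1 lower in shCtrl (median 0.37). In the shLinc line Mcm5, a subunit of the replicative helicase, went from 73, 73 and 75 to 184, 187 and 192 (1.55, adjusted p = 2.13e-17). The sum of the 14 members without H1f0 and H2ac24 in that line was 208.2 ± 1.31 before and 197.1 ± 2.32 after. The sum of all 16 members was 811.8 ± 14.8 before and 1022 ± 3.47 after. In restored against doxycycline cells, 1 S phase gene was higher and 46 lower in shLinc (median -0.80), and 5 higher and 27 lower in shCtrl (median -0.19). Restored shCtrl cells had the lowest sum of the 14 members without H1f0 and H2ac24, but the highest sum of all 16 members (1135 ± 23.3). Mcm5 went against most of the list there, at 183, 182 and 183 after 164, 166 and 166 with doxycycline and 124, 134 and 138 without. Mki67, a marker of dividing cells, fell from 51, 54 and 54 with doxycycline to 10, 10 and 11 in restored shCtrl cells. Mitosis genes were lower in restored than in doxycycline cells, 18 of 23 in shCtrl and 21 of 23 in shLinc (medians -0.84 and -0.79).

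Slbp, whose protein binds the stem-loop, stood at 26, 28 and 26 in untreated, 47, 50 and 49 in doxycycline and 20, 21 and 19 in restored shCtrl cells. In shLinc it stood at 17, 22 and 19, then 43, 41 and 42, then 21, 22 and 19. Doxycycline libraries were above all others in both lines. Slbp fell from doxycycline to restored cells by 1.26 on the log2 scale in shCtrl (adjusted p = 5.61e-11) and by 1.16 in shLinc (adjusted p = 1.09e-10). Of 26 tested genes for processing and decay of histone mRNA, 14 were lower and 8 higher in restored shCtrl cells. The shares of all genes there were 34.2% and 39.6%. In restored shLinc cells 19 were lower and 2 higher, beside 38.0% and 34.2% of all genes. The part of these genes and of the cell cycle in the histone values was not tested. The summed level of hepatocyte markers also moved, from 795.4 to 813.6 with doxycycline to 657.3 to 673.4 restored in shCtrl, and from 469.0 to 480.5 to 1400 to 1439 in shLinc. The rise in shLinc lay in markers other than Alb, which was at 34, 31 and 33, then 37, 36 and 34. In shCtrl Alb went from 87, 91 and 90 to 30, 30 and 31. Apoa2, Fgb, Cps1 and Cyp2e1 were at 0 in all inducible libraries, as were all 9 lymphocyte markers.

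Between the hairpins, the members differed little while doxycycline was present. In shLinc against shCtrl with doxycycline, 0 of 16 members were higher and 2 lower, beside 25.4% and 27.0% of all genes, with 3 at an unadjusted p below 0.05. H1f0 was lower in shLinc, at 246, 244 and 245 against 277, 288 and 279 (-0.19, SE 0.03, adjusted p = 0.000167). H2bc8 was at 2, 2 and 3 against 5, 6 and 6 (-1.02, adjusted p = 0.000176). Without doxycycline 3 members were higher and 2 lower in shLinc (background 30.2% and 35.1%), and in restored cells 4 were higher and 1 lower (background 25.7% and 32.1%). H2bc21 was higher in shLinc in both, by 0.97 and 0.60 (adjusted p = 2.15e-09 and 9.57e-07), and H2ac24 was lower in both, by -0.87 and -0.89 (adjusted p = 2.54e-07 and 2.25e-07). H2bc4 was higher in restored shLinc cells, at 29, 26 and 24 against 15, 16 and 16 (0.56, adjusted p = 7.15e-06). Falcor itself was lower in shLinc with doxycycline and higher in shLinc in the other conditions (0.75 and 0.86, adjusted p = 0.000188 and 6.40e-05).

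The differences between hairpins were also compared across conditions. The hairpin effect with doxycycline minus that without gave 3 members higher and 4 lower (background 33.9% and 31.0%). With doxycycline minus restored it gave 1 higher and 6 lower (background 31.7% and 28.8%), and restored minus no doxycycline 4 higher and 1 lower (background 11.1% and 8.77%). H2bc21 and H1f2 were called in all 3, and H2ac24 and H1f0 in both that involve doxycycline. The last count dropped to 3 without restored shLinc replicate 1 or replicate 3. For H1f2, the difference with doxycycline minus none (-0.29, adjusted p = 0.0241) lost its call without untreated shCtrl replicate 2 or 3, untreated shLinc replicate 1 or doxycycline shLinc replicate 2 (adjusted p = 0.0546 to 0.0692). Its difference for restored minus none (0.33, adjusted p = 0.0380) lost its call without any 1 of 8 of the 12 libraries (adjusted p = 0.0509 to 0.102). These were untreated shCtrl replicate 1, untreated shLinc replicates 2 and 3, restored shCtrl replicates 2 and 3 and restored shLinc replicates 1, 2 and 3.

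H2ac18 and H2ac19 are near-identical: all 31-base words of H2ac19 (100%) also occur in H2ac18, and 89.6% of those of H2ac18 in H2ac19. H2ac18 also shares 100% of its words with Gm20633, and H2ac19 100% with Gm20632. Neither Gm20633 nor Gm20632 is part of the sums below. In shLinc with doxycycline H2ac18 was at 8, 16 and 25 and H2ac19 at 25, 20 and 10, while shCtrl had 5, 6 and 5 and 15, 17 and 20. The values of the genes went opposite ways between the shLinc replicates. Neither was called in that comparison, but their sum was higher in shLinc (0.60, SE 0.09, adjusted p = 2.36e-05). In restored against untreated shCtrl cells H2ac19 was called lower (-0.87, adjusted p = 0.0264), H2ac18 was at -1.28 (adjusted p = 0.0739), and the sum was lower (-1.04, adjusted p = 5.46e-08). In restored against doxycycline shLinc cells H2ac18 alone was called lower (-1.60, adjusted p = 0.0204), against -0.27 for the sum (adjusted p = 0.0103).

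The conventional knockdowns showed most of the family. In shCtrl, values per length were highest for H4c18, at 352.0 ± 35.8 CPM per kilobase (SD, n = 3), where CPM is the count scaled to library size. Length was that of the longest annotated transcript, 430 bases for H4c18 and 1930 for H1f4, with 1153 after the stem-loop of H1f4. An RNA shorter than annotated would give a higher value, so the order of genes depends on these transcripts. H4c18 shares 85.2% of its 31-base words with H4c17, which was at 0 in all 9 conventional libraries, so the row may hold the reads of both copies. H1f0 followed at 149.8 ± 10.4, then H4c8 at 135.7 ± 25.7, H1f4 at 133.6 ± 12.3, H3c6 at 107.5 ± 9.67, H2ac18 at 102.7 ± 22.6 and H4c4 at 100.3 ± 9.04. H4c8 lay within its SD of both H1f0 and H1f4, and H3c6, H2ac18 and H4c4 lay within 1 SD of each other. H2bc8 led the H2B genes at 66.7 ± 7.40. Of the 50 members, 48 passed the filter on low counts.

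The summed level of all 50 members was 1770 ± 138 CPM in shCtrl, 1520 ± 79.7 in shFalcor and 2329 ± 172 in shZC3H11A. Libraries of shCtrl lay between 1612 and 1872, of shFalcor between 1429 and 1579 and of shZC3H11A between 2214 and 2526, with no overlap. Without H1f0 the sums were 1462 ± 129, 1219 ± 80.9 and 1744 ± 114, in the same order. By class, the H4 genes summed to 473.2 ± 46.1 CPM in shCtrl, 460.8 ± 40.5 in shFalcor and 659.6 ± 36.4 in shZC3H11A. The H2B genes summed to 190.7 ± 16.2, 142.2 ± 6.59 and 201.4 ± 7.65. In shFalcor the H2B sum was thus below every control library (175.7 to 207.9), while the H4 sums overlapped.

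Under shFalcor, 1 member rose and 7 fell of 48, beside 25.5% and 26.0% of all 11871 genes tested by edgeR. The share of members called was below the background in both directions. Their median was -0.20, against -0.005 for all genes, and 38 of 48 had a negative estimate. H1f4 had 233.2, 280.5 and 259.6 CPM in shCtrl and 175.7, 161.6 and 144.9 in shFalcor, without overlap (-0.68, SE 0.09, adjusted p = 5.65e-06). H2bc21 had 11.8, 12.4 and 8.36 against 5.86, 3.55 and 4.39 (-1.23, SE 0.25, adjusted p = 0.000571). H1f2 had 119.0, 145.7 and 138.3 against 110.9, 108.1 and 94.9 (-0.36, adjusted p = 0.00742), with the highest shFalcor library below the lowest control.

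H2bc7, H2ac18, H2ac24 and H2bc8 were the other members that fell. H2bc7 had 9.15, 10.96 and 10.65 CPM in shCtrl and 6.02, 5.44 and 5.27 in shFalcor (-0.87, adjusted p = 0.00578). H2ac18, whose near-identical copy H2ac19 was at 0 counts in every conventional library, had 53.1, 51.9 and 75.4 against 40.4, 39.7 and 42.5 (-0.55, adjusted p = 0.00182). It also shares 100% of its 31-base words with Gm20633, which was not summed with it, so its row is uncertain. H2ac24 passed at an adjusted p of 0.0152 (-0.50) and lost the call without shCtrl replicate 1, shCtrl replicate 3 or shFalcor replicate 2 (adjusted p = 0.0525, 0.0840 and 0.0545). H2bc8 (-0.36) lost it without shCtrl replicate 2 or 3 or shFalcor replicate 1 (adjusted p = 0.0515, 0.0574 and 0.0722), as well as under DESeq2 (0.0523). H4c4 was the member that rose, from 108.5, 108.0 and 126.0 to 122.6, 133.6 and 139.8 CPM, with overlap between the groups (0.21, adjusted p = 0.0294). H1f0 did not pass the test, at 307.8 ± 21.4 and 300.6 ± 2.50 CPM (-0.03, SE 0.07, adjusted p = 0.721).

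**Figure D3:**
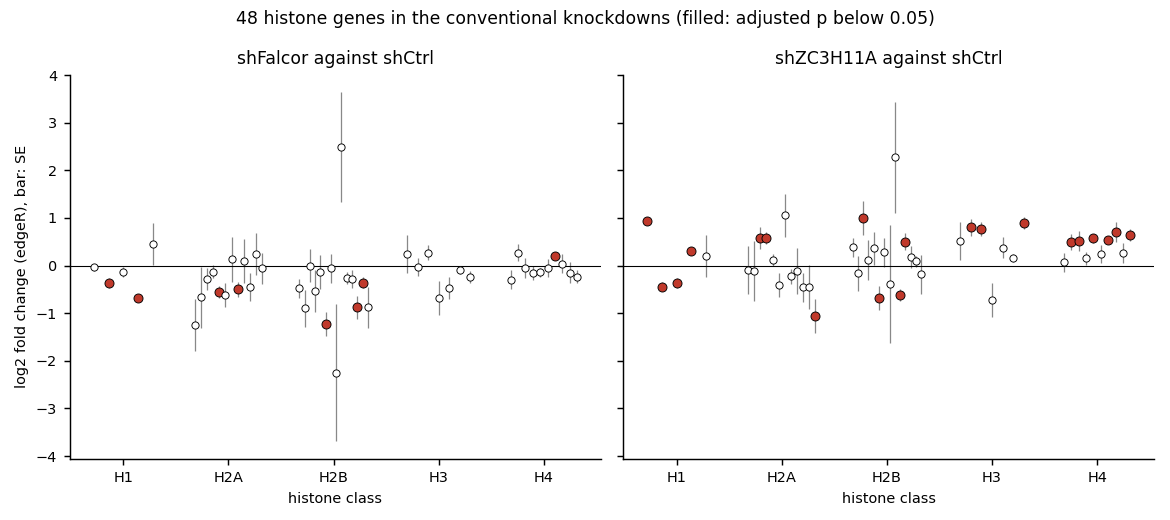
Log2 fold change of each of 48 histone genes under shFalcor (left) and shZC3H11A (right) against shCtrl, by class; bars are the SE, and filled points have an adjusted p below 0.05 in edgeR. All 10 H4 genes lie above 0 under shZC3H11A, and 6 of them are filled.

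Under shZC3H11A, 15 members rose and 5 fell, beside 24.2% and 24.3% of all genes, with a median of 0.22 against 0.002. The H4 genes contributed most: all 10 had a positive estimate and 6 rose (median 0.51). Of 7 H3 genes, 3 rose and 0 fell (median 0.51). The H2A and H2B genes had 2 higher and 1 lower of 12, and 2 higher and 2 lower of 14. By the annotated end, 5 of 10 genes with a coding-only transcript rose and 0 fell, against 3 and 0 of 14 that end at the stem-loop, and 6 and 3 of 16 that run past it.

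H1f0 had the smallest p. It had 298.8, 292.3 and 332.2 CPM in shCtrl and 552.3, 550.7 and 652.0 in shZC3H11A, well apart (0.93, SE 0.07, adjusted p = 7.71e-09). H3c7 had 25.0, 29.1 and 29.7 against 44.3, 53.4 and 57.8 (0.89, SE 0.13, adjusted p = 1.29e-05). H4c9 had 37.4, 48.2 and 47.4 against 67.1, 67.8 and 72.5, again without overlap (0.65, SE 0.13, adjusted p = 0.000351). H3c10 (0.81, adjusted p = 0.00139) and H3c11 (0.77, adjusted p = 0.000300) rose as well. Each shares 85.3% of its 31-base words with the other, so these rises may not be separate, and the rows were not summed. Both are counted above, in the H3 class and in the coding-only group. H4c18, the highest per length, had 136.8, 167.5 and 149.8 against 236.5, 204.0 and 233.1.

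Members that fell under shZC3H11A were H1f2, H1f3, H2bc4, H2bc21 and H2ac8. H2bc4 had 34.0, 33.2 and 29.0 CPM in shCtrl and 19.2, 20.3 and 23.1 in shZC3H11A (-0.63, SE 0.13, adjusted p = 0.000513). H1f2 was at 134.4 ± 13.8 against 99.0 ± 13.8 (-0.44, adjusted p = 0.00217). So of the linker histones H1f0 and H1f4 rose (H1f4 by 0.31) while H1f2 and H1f3 fell. Calls of low or weak members depended on single libraries. H2ac8 (-1.06, adjusted p = 0.0194) lost its call without shCtrl replicate 3, shZC3H11A replicate 1 or shZC3H11A replicate 2 (adjusted p = 0.0543, 0.105 and 0.0693). H2bc21 (-0.68, adjusted p = 0.0315) lost it without shCtrl replicate 1 or 2 or shZC3H11A replicate 1 or 2 (0.106, 0.107, 0.123 and 0.0640). H1f3 (-0.37) lost it without shZC3H11A replicate 1 (0.0542). H2bc14, which rose by 1.00, lost it without shCtrl replicate 2 or 3 or shZC3H11A replicate 2 or 3 (0.0883, 0.0792, 0.0990 and 0.0658).

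**Figure D4:**
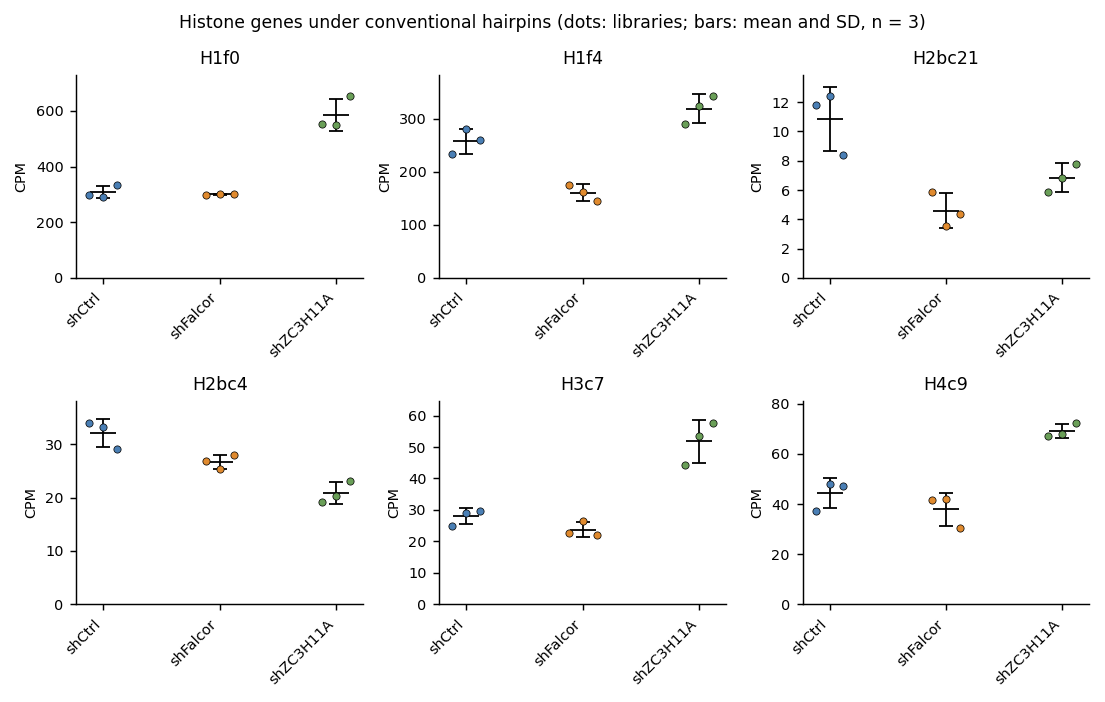
Values in CPM of 6 histone genes under 3 conventional hairpins; points are libraries, bars are the mean and SD of 3. H1f0, H3c7 and H4c9 are highest in shZC3H11A, H1f4 is lowest in shFalcor, and H2bc4 is lowest in shZC3H11A.

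Set directly against shZC3H11A, shFalcor had 2 members higher and 20 lower, beside 28.4% and 28.6% of all genes, with a median of -0.52. H3c7 differed by -1.13 (SE 0.13, adjusted p = 6.33e-07), H1f4 by -0.99 (adjusted p = 5.19e-08), H1f0 by -0.96 (adjusted p = 2.80e-09) and H4c9 by -0.88 (adjusted p = 1.27e-05). H2bc4 was higher in shFalcor, by 0.36 (adjusted p = 0.0230), and lost the call without shFalcor replicate 1 or 3 or shZC3H11A replicate 1 or 2 (0.0503, 0.0679, 0.103 and 0.0586). The targets themselves overlapped: Zc3h11a had 558, 375 and 359 counts in shCtrl, 239, 155 and 374 in shFalcor and 33, 64 and 33 in shZC3H11A. The -0.75 of shFalcor (adjusted p = 0.0243) lost its call without any 1 of its libraries or of shCtrl replicates 1 and 2 (adjusted p = 0.0504 to 0.0790), and with the replicate block (0.0567).

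Lists of cell cycle genes and markers are given beside these members. Of all genes, 24.2% rose and 24.3% fell under shZC3H11A, and 25.5% rose and 26.0% fell under shFalcor. Of 23 mitosis genes, 15 rose and 0 fell under shZC3H11A (median 1.38), as Top2a (1.15, adjusted p = 0.000334) and Kif20a (1.98, adjusted p = 0.000121). Under shFalcor 0 rose and 1 fell, Top2a (-1.38, adjusted p = 0.000260). Of 45 S phase and replication genes, 13 rose and 5 fell under shZC3H11A and 5 rose and 7 fell under shFalcor, where Rrm2, a subunit of ribonucleotide reductase, changed by -1.43 (adjusted p = 5.83e-09). Summed hepatocyte markers were 430.9 to 485.3 CPM in shCtrl, 120.4 to 143.2 in shFalcor and 648.4 to 902.2 in shZC3H11A. The sum does not stand for every marker. Alb, on that list, was at 57.3 ± 3.91 in shCtrl, 11.1 ± 0.99 in shFalcor and 23.3 ± 3.95 in shZC3H11A. Macrophage markers were 4.10 to 5.56 in shCtrl and 48.6 to 51.3 in shFalcor, where 7 of 10 were at 0. The part of these shifts in the histone values was not tested.

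H2bc23 and H2bc24 show how near-identical copies were divided. The shCtrl libraries gave H2bc23 277, 215 and 237 counts and H2bc24 27, 22 and 24. In shFalcor the order turned for replicates 1 and 3, with 1 and 0 counts for H2bc23 against 168 and 258 for H2bc24, but not for replicate 2, with 132 against 19. It also turned in 1 shZC3H11A library, at 28 against 290. Neither row was called in any conventional comparison. Their sum was 35.2, 42.6 and 42.8 CPM in shCtrl and 27.5, 31.6 and 28.3 in shFalcor, a fall of -0.46 (SE 0.12, adjusted p = 0.00424), and it differed by 0.19 in shZC3H11A (adjusted p = 0.212).

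In liver, where few hepatocytes divide, H4c8 led the H4 genes, while most other leading members also led their class in an AML12 table. The highest of each class in the NCD table were H2ac18 (mean 116.0), H4c8 (97.8), H2bc4 (55.9), H1f0 (40.4) and H3c6 (7.13). In HFD they were H2ac19 (49.9), H4c8 (44.2), H2bc4 (37.6), H1f0 (16.4) and H3c6 (3.45). Mki67, a marker of dividing cells, was at 0 in every liver. In whole liver, fewer cells of a type and less RNA per cell cannot be told apart.

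On NCD, no member passed the test. The summed level of 24 members was 612.7 ± 47.9 in control livers (n = 4) and 536.2 ± 69.6 in knockout livers (n = 4), with ranges of 558.5 to 660.1 and 444.2 to 602.5 that overlap. By limma, 0 members were higher and 0 lower, beside 4.16% and 1.81% of all 9536 genes tested. At an unadjusted p below 0.05 there were 3, H1f0, H1f2 and H4c14, and 19 of 24 estimates were negative (median -0.20 against 0.04 for all genes). How many of all genes reached such a p was not counted. H1f4, at an unadjusted p of 0.0594, had an adjusted p of 0.185 (limma), so p-values of this size were common among all genes.

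H1f0 was at 38, 52, 47 and 37 in the control livers Ctrl-2 to Ctrl-5 and at 34, 36, 40 and 39 in the knockout livers KO-1, KO-2, KO-4 and KO-5. The deposited values overlapped, and after scaling the groups did not, at 46.4 ± 6.63 and 34.8 ± 0.64 (-0.40, SE 0.10, adjusted p = 0.0543). H1f2 was at 23, 25, 20 and 13 against 13, 15, 9 and 12, where Ctrl-5 lay within the knockout range (-0.84, SE 0.24, adjusted p = 0.0668). H4c14 was at 21, 28, 24 and 23 against 20, 21, 25 and 16, and did not overlap after scaling (-0.41, adjusted p = 0.0816). The calls turned on the liver Ctrl-5. Without it 3 members were lower, H1f0 (-0.49, adjusted p = 0.0134), H1f2 (-1.05, adjusted p = 0.0140) and H4c4 (-0.37, adjusted p = 0.0298), and 1707 of 9590 genes were called in all. H4c8 and H2bc4 were at 96.6 ± 11.7 and 98.7 ± 10.3, and at 54.8 ± 2.64 and 56.7 ± 6.15, in control and knockout (differences 0.03 and 0.04).

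**Figure D5:**
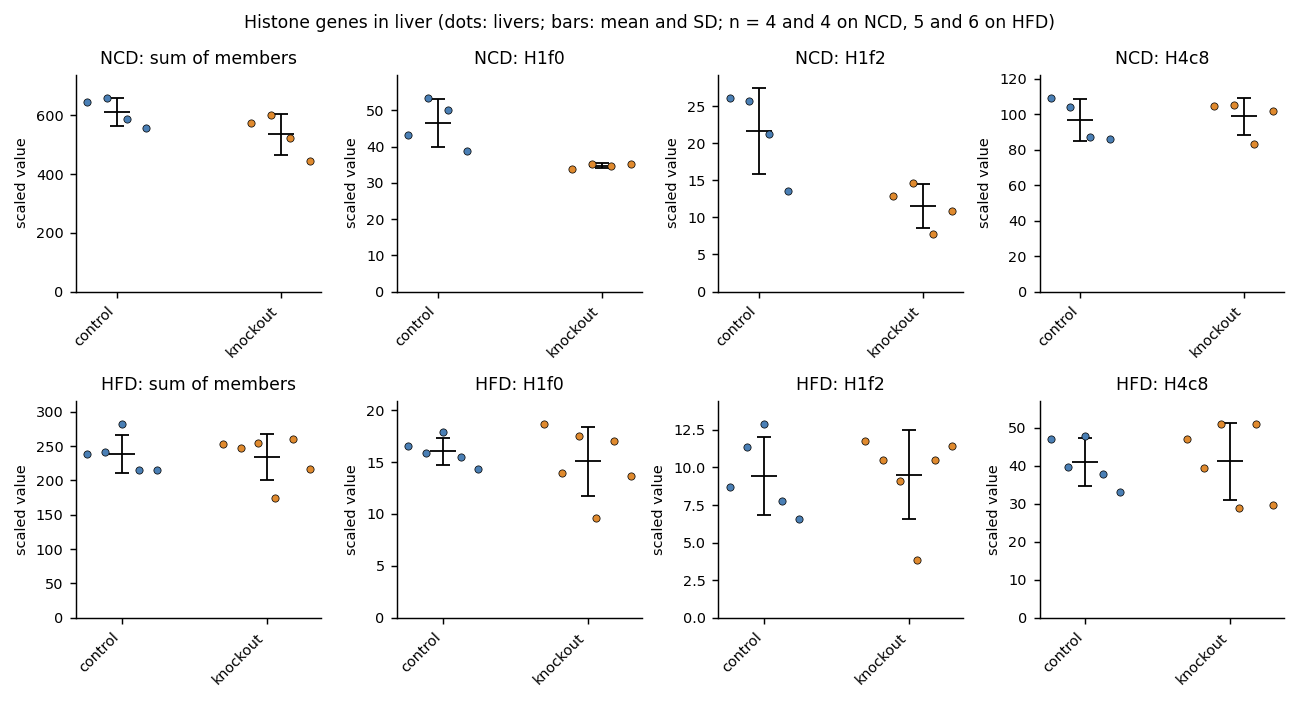
Summed members, H1f0, H1f2 and H4c8 in control and Falcor knockout livers on NCD (top) and HFD (bottom), as scaled values; points are livers, bars are the mean and SD. On NCD H1f0 is at 46.4 and 34.8 without overlap, and on HFD the groups overlap in all panels.

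Of 6 RNAs without a poly(A) tail, 3 were lower in NCD knockout livers (median -0.60), beside 1.81% of all genes. Rn7s1, the RNA of the signal recognition particle, was among them (-0.74, adjusted p = 0.0452, limma). Summed Kupffer cell and macrophage markers were 149.1 to 305.0 in control and 117.1 to 173.7 in knockout livers, and hepatocyte markers 44536 to 58888 and 56718 to 76116. Their part in the histone values was not tested.

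On HFD no member separated the groups. The sum of 17 members was 238.7 ± 27.3 in control livers (n = 5) and 234.2 ± 33.0 in knockout livers (n = 6). No member was higher or lower, beside 0.0324% and 0.0162% of all 6176 genes tested, and 1 was at an unadjusted p below 0.05 (median -0.02 against 0.02). H1f0 had 13, 14 and 25 as lowest, median and highest value in control livers and 6, 17.5 and 23 in knockout livers, the lowest in KO-6 (-0.11, SE 0.14, adjusted p = 0.796). H1f2 was at 9.46 ± 2.60 and 9.53 ± 2.93 (-0.02, SE 0.25), and H4c8 at 41.1 ± 6.33 and 41.2 ± 10.1 (-0.02, SE 0.17). Without KO-6 the count was again 0.

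The change of the knockout effect with diet was tested for the 17 genes that were members on both diets. None was called, beside 2.51% higher and 4.62% lower of all 6128 genes, with 1 at an unadjusted p below 0.05. That gene was H1f2, with an estimate of 0.82 (SE 0.35, adjusted p = 0.128). It passed without NCD Ctrl-5 (1.03, adjusted p = 0.0295) or without HFD KO-4 (1.03, adjusted p = 0.0449).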

How the data were processed

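The members and gene lists were chosen with earlier results of these data known. Per the labels' protocols, the kit removed rRNA and kept strand. Tools in the submitters' processing notes are kallisto and DESeq2, and the build is mm10, without versions or roles. The authors deposited counts for the conventional hairpins, which sum to 4474760 to 8837581 per library. For the inducible lines and livers the authors deposited whole numbers that were treated as a score, since they look like a rounded, length-scaled unit that no source names. Every value column was mapped to a sample or group. Counts were tested with edgeR 4.0.16 (quasi-likelihood, robust, filterByExpr, trimmed mean of M-values (TMM) scaling) and printed as CPM. Score tables were divided by TMM factors and tested with limma 3.58.1 (trend, robust) on log2(value + 1) for genes with a mean of at least 3, which understates changes of low genes. "Scaled" means after this division; other values are as deposited. All groups of a table shared 1 fit, and p-values were adjusted by Benjamini-Hochberg over all genes tested (called below 0.05). The diets were compared through the difference of their estimates with Welch-Satterthwaite degrees of freedom. The scripts were tested on simulated data. Alternatives were scaling, pseudocount, filters, DESeq2 1.42.0, a replicate block, left-out libraries and, chosen after seeing the data, sums of near-identical pairs. Named were, per comparison, up to 6 called members in each direction with the largest fold changes, no overlap and a group mean reaching 5, the highest member of each class, H1f0, and up to 4 genes of other lists with the smallest p; other genes (among them Mki67, Slbp where not among these, H4c4, H4c14, H2bc8, H2bc23, H2bc24 and H2ac19) were named after their values were seen. Sequences are from GENCODE vM21 and RefSeq.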

Additional observations from a re-analysis of the deposited data

Results flagged for a closer look

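In the NCD knockout livers, H4c8 in KO-4 lay far below the other 3, at a scaled value of 83.4 (gap over range 0.852). Of 24 groups checked this way, chance would flag about 1 in 20.

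The hairpin effect (shLinc against shCtrl) differed between conditions for several members, by an interaction term in limma with Benjamini-Hochberg adjustment over all genes. With doxycycline minus without, the differences on the log2 scale were -0.24 for H1f0 (adjusted p = 0.000362), -0.29 for H1f2 (0.0241), 1.03 for H2ac24 (1.95e-06), -0.96 for H2bc21 (1.75e-07) and 1.18 for H4c8 (0.000552). With doxycycline minus restored, they were -0.21 for H1f0 (adjusted p = 0.00128), -0.62 for H1f2 (9.17e-05), 1.05 for H2ac24 (1.91e-06), -0.59 for H2bc21 (4.77e-05) and -0.64 for H2bc4 (6.64e-05). Restored minus none, they were 0.33 for H1f2 (adjusted p = 0.0380), -0.37 for H2bc21 (0.0110), 0.47 for H2bc4 (0.00440) and 1.23 for H4c8 (0.00200). The H1f2 difference between restored and none missed the threshold when any 1 of 8 libraries was left out, among them restored shCtrl replicate 2 (adjusted p = 0.102).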

How the results depend on the processing

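Of 2416 values recomputed for 178 single-gene results, 2312 kept their direction and side of the threshold, 85 lost and 18 gained a call, and 1 reversed: without rescaling, H2bc4 in shLinc with doxycycline against none was -0.20 (adjusted p = 0.0170). Without rescaling the count of called members was 8 (6 higher, 2 lower) for shLinc against shCtrl without doxycycline, 8 (7 and 1) in restored cells, and 7 (1 and 6) for doxycycline against none in shLinc; the share of higher calls among all genes went from 46.2 to 67.6%, 44.5 to 67.2% and 52.0 to 35.9%, and the median of all genes to 0.163, 0.133 and -0.175. It went to 62.6, 36.0, 36.7 and 94.9% for shLinc restored against doxycycline, the hairpin differences with doxycycline minus none and minus restored, and NCD (median 0.21). Median-of-ratios scaling gave 1 lower member on NCD, H1f0 (-0.41, adjusted p = 0.0488). The cause was not tested.

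Leaving out 1 library at a time gave 2 to 3 called members with doxycycline between hairpins, 4 to 6 without and 4 to 7 restored; 5 to 7, 11 to 13 and 10 to 12 for doxycycline against none, restored against doxycycline and restored against none in shCtrl, and 3 to 4, 8 to 10 and 8 to 10 in shLinc; 5 to 7, 6 to 7 and 3 to 5 for the hairpin differences; 6 to 10, 14 to 18 and 17 to 23 for shFalcor, shZC3H11A and their difference; 0 to 3 on NCD (3 without Ctrl-5), 0 on HFD and 0 to 1 for the diets.

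Same-numbered libraries did not deviate together (correlations -0.143 to 0.141 inducible, -0.0612 to 0.141 conventional), so numbers do not pair them. With the replicate block, shFalcor gave 9 called members, shZC3H11A 18, their difference 22, and the inducible comparisons 2 to 13. In the livers the title number was known in both groups for 4 NCD and 6 HFD libraries, and over these 0 members were called with the replicate block and 0 without it, as for all livers (an alternative chosen after seeing the data). Unknown depth limits the score tables, and rounding hides the spread of values under about 10.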

Other observations

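Of 8 replication-independent histone genes tested, 6 were higher and 2 lower with doxycycline than without in shLinc. The shares of all genes there were 38.6% and 35.6%. In shCtrl 3 were higher and 2 lower, beside 34.0% and 32.5% of all genes. From doxycycline to restored cells, 1 was higher and 6 lower in shLinc (median log2 fold change -0.51), beside 34.2% and 38.0% of all genes. In shCtrl 2 were higher and 4 lower (median -0.18), beside 39.6% and 34.2%. H2ax, the H2A form that marks DNA breaks, was at 66, 71 and 73 in shLinc without doxycycline, at 177, 179 and 173 with it and at 97, 88 and 100 in restored cells (doxycycline against none 1.53, adjusted p = 2.63e-13, limma with Benjamini-Hochberg adjustment). In shCtrl it was at 105, 100 and 100, then 114, 119 and 117, then 102, 90 and 88. H2az1, a variant found at promoters, was at 362, 372 and 372, then 626, 625 and 627, then 502, 482 and 488 in shLinc, and at 474, 431 and 403, then 308, 311 and 317, then 482, 464 and 456 in shCtrl. With doxycycline H2az1 rose in shLinc (0.98, adjusted p = 9.18e-11) and fell in shCtrl (-0.46, adjusted p = 2.93e-06). In the conventional knockdowns H2ax rose under shZC3H11A (0.84, adjusted p = 0.00625) and H2az1 under shFalcor (0.37, adjusted p = 0.00146). No such gene passed the test in the livers, where 7 were tested on NCD and 6 on HFD.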
